A study of Rattus norvegicus with 4 samples.

Results

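The subject here is 8 genes that encode subunits of the GABA-A receptor, followed across nuclei of the rat ventral tegmental area. They are Gabra2 (ENSRNOG00000002349), Gabra3 (ENSRNOG00000056558), Gabra4 (ENSRNOG00000002336), Gabra5 (ENSRNOG00000010803), Gabrg1 (ENSRNOG00000002360), Gabrg3 (ENSRNOG00000014862), Gabrd (ENSRNOG00000016385) and Gabre (ENSRNOG00000061182). They were taken by symbol from a given list, 8 of the 32883 genes in the tables, and not by their values. The nuclei came from adult Sprague-Dawley rats aged 90 to 120 days that had received no treatment, and the dissected tissue of 3 animals of 1 sex was pooled for each library. There were 2 female and 2 male libraries (female 1, female 2, male 1 and male 2), so n = 4 for a comparison between cell populations and n = 2 per sex. Nuclei were stained with 7-aminoactinomycin D and sorted before droplet RNA sequencing with the 10x Genomics 3' v3 kit, in which each captured molecule carries a unique molecular identifier (UMI). The labels name no genotype beyond the strain.

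GABA-A receptors are chloride channels built from several subunits around a central pore. Most hold alpha and beta subunits together with 1 gamma subunit, and a delta or epsilon subunit can stand in the gamma position. Alpha and gamma subunits form the benzodiazepine site. Receptors with a delta subunit respond to low ambient GABA outside synapses and are sensitive to neurosteroids. In the ventral tegmental area, local GABA neurons and long-range GABA inputs restrain dopamine neurons through these channels, and benzodiazepines act on the same circuit. Astrocytes and oligodendrocyte precursors also carry GABA-A receptors.

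Nuclei were sorted into 7 gates by raw UMIs, each nucleus taking the first gate it met. The dopamine gate asked for 2 or more UMIs each of Th, tyrosine hydroxylase, and Slc6a3, the dopamine transporter. The Slc26a7-Gad2 gate asked for at least 1 UMI each of the anion transporter gene Slc26a7 and of Gad2, which encodes a GABA-synthesising enzyme. The GABA gate asked for 2 or more UMIs of Gad1, and the glutamate gate for 2 or more of the vesicular transporter gene Slc17a6 with none of Gad1. The precursor gate (oligodendrocyte precursors) asked for Pdgfra, the astrocyte gate for Gja1 with Aqp4, and the oligodendrocyte gate for Mog with Mobp, at 1 or more UMIs each. Of 20620 nuclei kept, 15134 (73.4%) entered a gate.

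The gates held 322 dopamine, 179 Slc26a7-Gad2, 1142 GABA, 1559 glutamate, 1614 precursor, 1847 astrocyte and 8471 oligodendrocyte nuclei. Total UMIs per library ranged from 19714338 to 25824289. Median UMIs per nucleus were 7485.5 to 9113 in the 4 neuron gates against 2402 to 3310 in the 3 glial gates, so shares of nuclei with a UMI were compared only after thinning to 1 depth. The labels of the gates were checked on genes that set no gate. Summed CPM (UMIs per 1000000 UMIs of the gate) of 7 dopamine markers, among them Slc18a2 and Ddc, was 2830 to 3431 in the dopamine gate, 735 to 1036 in the Slc26a7-Gad2 gate and at most 167 in the GABA and glutamate gates. In turn, 5 astrocyte markers summed to 5768 to 7060 CPM in the astrocyte gate, and 6 oligodendrocyte markers to 23765 to 39850 CPM in the oligodendrocyte gate. The glutamate gate was not marked further, since Slc17a7 and Slc17a8 together gave 4.57 to 7.98 CPM there. The gates are not pure: 5 neuron markers summed to 1400 to 1919 CPM in the precursor gate, against 4280 to 8321 in the neuron gates. Of the 179 Slc26a7-Gad2 nuclei, 46.4% also met a later gate, and 50 nuclei met its rule together with that of glutamate. Female 2 gave 236 glutamate nuclei against 407 to 497 in the other libraries, and 34 barcode sequences of 20586 occurred in more than 1 library.

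Several of the genes lie side by side in the genome. In the RefSeq table of the rat assembly GRCr8, Gabra4, Gabra2 and Gabrg1 lie in that order on chromosome 14, with 1 protein-coding gene between Gabra4 and Gabra2 and 0 between Gabra2 and Gabrg1. Gabra5 and Gabrg3 are direct neighbours on chromosome 1, and Gabre and Gabra3 lie on chromosome X with 1 protein-coding gene between them. The table of promoters held 7 of the 8 genes, all but Gabra2. Promoters of 2 pairs from these clusters are printed, since their levels parted across the gates, from 250 bases before to 50 after the RefSeq start, 5′ to 3′ on the gene's strand. Capitals mark the GC box GGGCGG, which SP1 proteins bind, on either strand. Gabra4 is at chr14:36944497-36944796 on the + strand, Gabrg1 at chr14:37750042-37750341 on the + strand, Gabra5 at chr1:117516557-117516856 on the - strand and Gabrg3 at chr1:117382408-117382707 on the - strand, all in GRCr8.
Gabra4: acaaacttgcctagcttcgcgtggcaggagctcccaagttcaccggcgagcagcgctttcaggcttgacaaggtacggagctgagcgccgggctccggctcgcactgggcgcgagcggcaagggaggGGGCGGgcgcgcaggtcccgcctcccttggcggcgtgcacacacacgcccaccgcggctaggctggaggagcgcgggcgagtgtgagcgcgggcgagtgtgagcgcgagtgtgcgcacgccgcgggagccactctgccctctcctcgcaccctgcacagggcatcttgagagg
Gabrg1: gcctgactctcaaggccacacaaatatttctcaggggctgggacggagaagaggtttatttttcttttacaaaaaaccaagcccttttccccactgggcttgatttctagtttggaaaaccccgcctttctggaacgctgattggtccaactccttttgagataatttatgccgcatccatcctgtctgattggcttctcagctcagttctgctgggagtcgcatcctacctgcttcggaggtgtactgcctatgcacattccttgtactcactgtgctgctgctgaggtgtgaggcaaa
Gabra5: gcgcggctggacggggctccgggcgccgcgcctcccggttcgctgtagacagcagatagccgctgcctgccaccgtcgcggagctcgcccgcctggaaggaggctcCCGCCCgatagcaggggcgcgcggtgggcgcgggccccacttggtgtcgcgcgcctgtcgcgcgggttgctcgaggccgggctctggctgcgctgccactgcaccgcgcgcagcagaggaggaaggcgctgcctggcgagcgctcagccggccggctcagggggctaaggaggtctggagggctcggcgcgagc
Gabrg3: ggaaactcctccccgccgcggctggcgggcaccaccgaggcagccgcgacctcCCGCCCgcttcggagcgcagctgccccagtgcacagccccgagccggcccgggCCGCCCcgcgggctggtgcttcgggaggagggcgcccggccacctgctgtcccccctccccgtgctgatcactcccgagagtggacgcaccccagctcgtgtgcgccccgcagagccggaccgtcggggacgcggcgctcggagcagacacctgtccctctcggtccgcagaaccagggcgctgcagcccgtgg

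The neighbours Gabra4 and Gabrg1 have unlike promoters. The Gabra4 window is 70.7% G or C with 35 CpG dinucleotides, and the Gabrg1 window is 48.7% with 6. Gabra5 and Gabrg3 are both rich in G and C, at 76.3% with 42 CpG and 76.7% with 37 CpG, while the Gabra3 window is 39.3% with 0 CpG. The median over 33469 promoters of this length was 51.7% with 7 CpG. In all, 6 motifs were searched on both strands, and the GC box and the EGR site GCGGGGGCG can overlap. GGGCGG matched in 1 place in Gabra4, 123 bases before the start, in 1 place in Gabra5 and in 2 places in Gabrg3, and 33.1% of all promoters held it. It also matched in several places each in Gabrd and Gabre, and nowhere in Gabra3 or Gabrg1. The TATA box TATAAA, in 14.2% of all promoters, matched only Gabra3 among the 7, on the opposite strand and 194 bases before the start. GCGGGGGCG (2.73% of promoters), the cAMP response element TGACGTCA (1.83%), the SOX site CATTGTT (4.02%) and the NGFI-B element AAAGGTCA of NR4A receptors (1.43%) matched none of the 7. A match describes letters in a window and no more.

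The alpha subunits differed between gates in separate ways, and Gabra4 set the dopamine gate apart. Gabra4 encodes the alpha-4 subunit, which often pairs with delta in receptors outside synapses. Its level in dopamine nuclei was 344 CPM (female 1), 306 (female 2), 369 (male 1) and 296 (male 2). In glutamate nuclei the libraries gave 158, 61.5, 174 and 111 CPM in the same order. The 4 dopamine values lay above every value of the other 6 gates, though a subset of glutamate nuclei described below overlapped them. Astrocytes held 110 to 129 CPM, Slc26a7-Gad2 nuclei 59.5 to 157, GABA nuclei 48.0 to 98.7, precursors 23.9 to 63.2 and oligodendrocytes 0.821 to 4.28. The dopamine gate exceeded the GABA gate by a log2 fold change of 2.30 ± 0.18 (SE; adjusted p = 1.13e-12) and the glutamate gate by 1.45 ± 0.17 (adjusted p = 9.76e-09), by edgeR's quasi-likelihood test over 12412 genes with library as a block. After thinning to 2000 UMIs per nucleus, 37.6% ± 1.9 (SD, n = 4) of dopamine nuclei held a Gabra4 UMI, 73.7% without thinning. Oligodendrocytes gave 0.253% after thinning. The exact two-sided sign-flip test of such shares over 4 libraries cannot reach p = 0.05, and the dopamine share was the higher in 4 of 4.

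**Figure D1:**
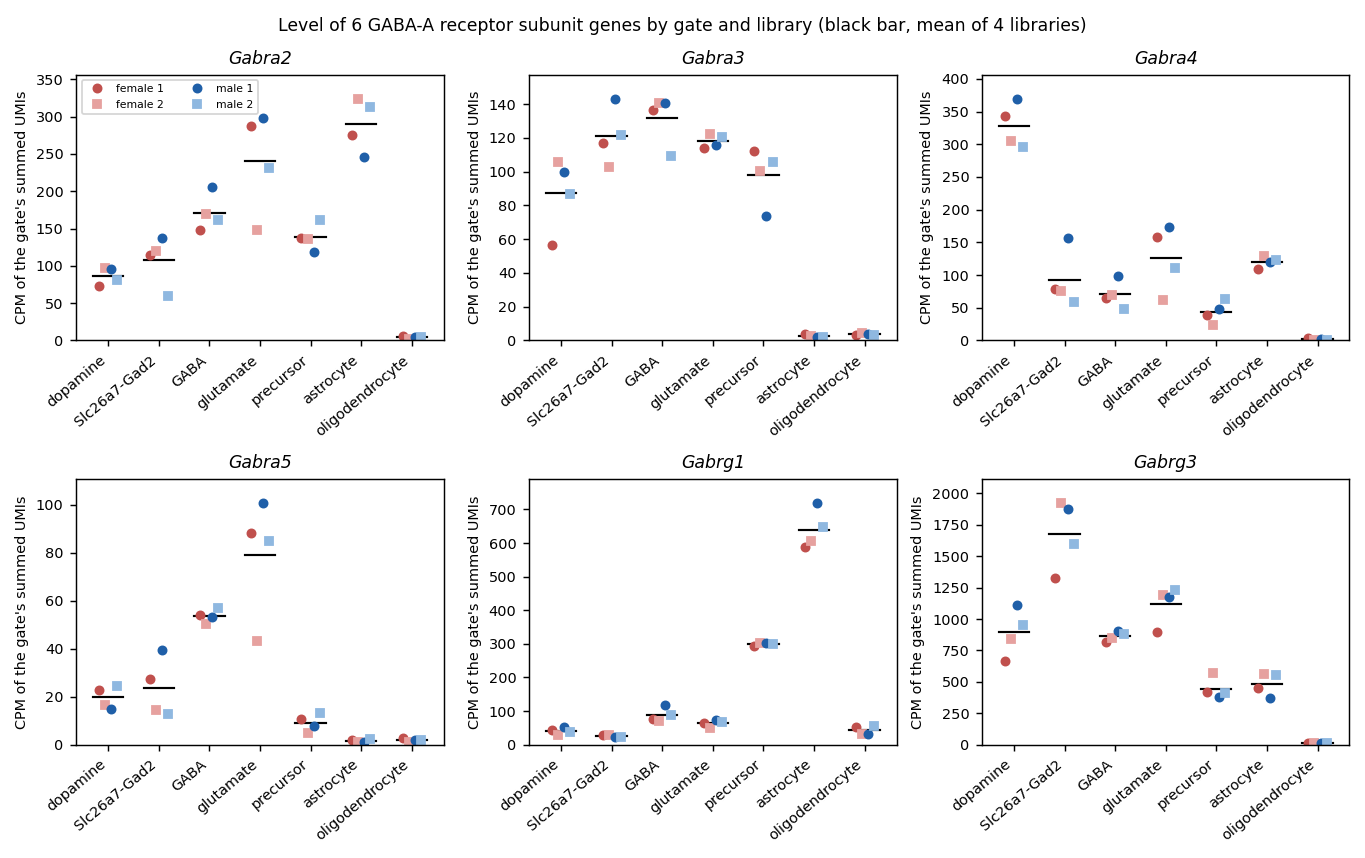
Level of Gabra2, Gabra3, Gabra4, Gabra5, Gabrg1 and Gabrg3 by gate. The vertical axis is CPM of the UMIs summed per gate and library, each point is 1 of the 4 libraries and the black bar is their mean. Gabra4 peaked in the dopamine gate at 296 to 369 CPM, Gabrg1 in the astrocyte gate at 587 to 719 and Gabrg3 in the Slc26a7-Gad2 gate at 1327 to 1920.

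Gabra2, which encodes the alpha-2 subunit found at many synapses on the cell body and initial axon segment, was lower in dopamine nuclei than in GABA or glutamate nuclei. Astrocytes held 276, 323, 246 and 313 CPM in female 1, female 2, male 1 and male 2. Glutamate nuclei held 287, 148, 298 and 231 CPM, with female 2 well below the other 3. The order then ran GABA (148 to 206 CPM), precursor (119 to 161), Slc26a7-Gad2 (59.5 to 137), dopamine (72.8 to 96.8) and oligodendrocyte (1.37 to 5.39). Each neighbour in that order overlapped the next except dopamine and oligodendrocyte. The dopamine gate lay below GABA by a log2 fold change of -0.91 ± 0.20 (edgeR adjusted p = 0.000500) and below glutamate by a log2 difference of -1.42 ± 0.19 (adjusted p = 2.37e-07).

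Gabra3, for the alpha-3 subunit, common in brainstem and monoamine nuclei, ran from 56.6 to 143 CPM across neurons and precursors and was close to 0 in the other glia. GABA nuclei held 137, 141, 141 and 109 CPM, with male 2 below the other 3 libraries. Slc26a7-Gad2 nuclei held 103 to 143, glutamate 114 to 122, precursor 74.0 to 113 and dopamine 56.6 to 106. Astrocytes held 2.26 to 3.78 CPM and oligodendrocytes 2.98 to 4.65, ranges that overlap. The dopamine gate was lower than GABA by a log2 difference of -0.51 ± 0.13 (edgeR adjusted p = 0.0027) and lower than glutamate by a log2 difference of -0.37 ± 0.13 (adjusted p = 0.0361). In male 1, 74.0 CPM in precursors was the lowest of the 4.

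Gabra5 encodes the alpha-5 subunit, known for tonic inhibition in the hippocampus, and was a gene of glutamate and GABA nuclei here. Glutamate nuclei held 88.1, 43.2, 100 and 84.7 CPM and GABA nuclei 54.2, 50.1, 53.0 and 56.8. Slc26a7-Gad2 nuclei (12.9 to 39.3) and dopamine nuclei (15.0 to 24.4) overlapped and lay below both. Precursors held 4.95 to 13.0 CPM, and astrocytes and oligodendrocytes at most 2.60. The dopamine gate was lower than glutamate by a log2 difference of -1.96 ± 0.20 (edgeR adjusted p = 5.14e-10) and lower than GABA by a log2 difference of -1.39 ± 0.21 (adjusted p = 2.09e-06). Gabra2, Gabra4 and Gabra5 each had their lowest glutamate value in female 2, which gave 4 of the 148 glutamate nuclei with a UMI of Nkx2-1, a ventral forebrain factor, against 41 to 55 elsewhere. Without nuclei that held Nkx2-1, Foxb1 or Sim1, Gabra2 ran from 134 to 233 CPM and Gabra4 from 62.6 to 124 in the glutamate gate, with female 2 still lowest.

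Of the gamma subunit genes, Gabrg1 was highest in astrocytes and precursors. Gabrg3 was highest in the neuron gates but still averaged 484 CPM in astrocytes and 445 in precursors. Gabrg1 encodes the gamma-1 subunit, which gives receptors of low benzodiazepine sensitivity and is a known subunit of glia. Astrocytes held 587, 607, 719 and 647 CPM in female 1, female 2, male 1 and male 2. Precursors held 294, 303, 302 and 300, so the 4 libraries agreed closely and lay below all astrocyte values. GABA nuclei held 69.9 to 118 CPM, glutamate nuclei 50.2 to 73.1, dopamine nuclei 28.9 to 51.5 and Slc26a7-Gad2 nuclei 22.4 to 29.9. Gabrg1 was the 1 gene of the 7 tested that was lower in the mean of the neuron gates than in the mean of the glial gates, at a log2 fold change of -2.28 ± 0.09 (edgeR adjusted p = 2.09e-22). After thinning, 65.5% ± 3.3 of astrocytes and 41.6% ± 0.74 of precursors held a Gabrg1 UMI (SD, n = 4), 77.1% and 50.7% without thinning. Slc26a7-Gad2 nuclei gave 5.26% and dopamine nuclei 7.61% after thinning, beside 6.98% in oligodendrocytes and 0.315% in ungated nuclei with microglia markers (median 1330 UMIs, 825 of 1008 left out by thinning).

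Gabrg1 was also the gene with a distinct level in oligodendrocytes. Oligodendrocyte nuclei held 53.7, 32.2, 30.8 and 54.8 CPM, from 289, 235, 148 and 329 UMIs. Set against the level over all nuclei of the same library, this was 27.1% to 43.2%, whereas the other 5 genes of moderate level reached 1.33% to 7.34%. In 1008 ungated nuclei with 2 or more UMIs of microglia markers, Gabrg1 gave 0, 2.22, 3.54 and 2.42 CPM, at most 3.11% of the level over all nuclei, from 0 or 1 UMI per library. Astrocyte markers summed to 328 to 351 CPM in oligodendrocytes, of which Slc1a3 made up 317 on average, while Slc1a2 stood at 1.32 CPM there against 961 in astrocytes. Oligodendrocytes with a UMI of Opalin, a myelin gene, held 59.0, 37.0, 32.7 and 57.4 CPM of Gabrg1, and those without it 43.3, 20.8, 25.7 and 47.6, higher with Opalin in each of the 4 libraries. For Gabrg3 the order was the other way in all 4, with 7.79 to 10.3 CPM against 18.3 to 36.2. The Opalin subsets were chosen with values known and were not tested.

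**Figure D2:**
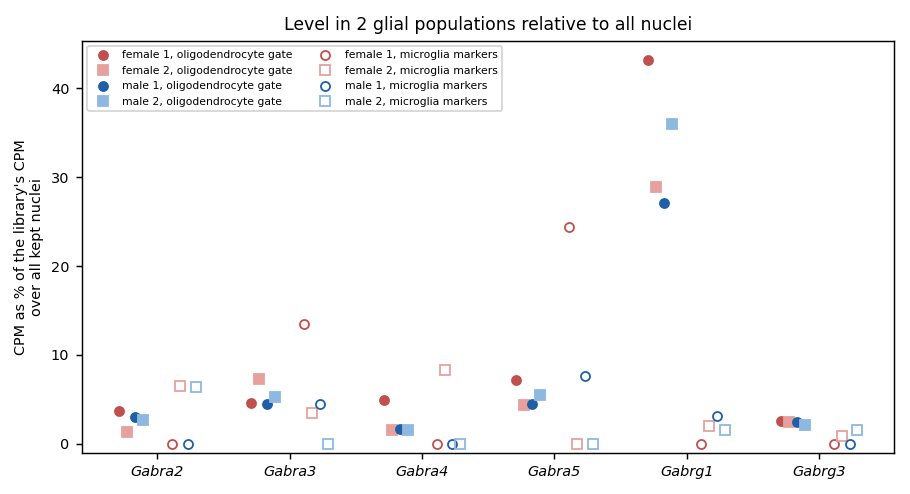
Level of 6 subunit genes in 2 glial populations relative to all nuclei. The vertical axis is the CPM of the population as a percentage of the CPM over all kept nuclei of that library. Filled points are the oligodendrocyte gate and open points are ungated nuclei with microglia markers, 1 point per library. Gabrg1 in oligodendrocytes lies at 27.1% to 43.2%, above the 7.34% that no other gene passes in that gate.

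Gabrg3 encodes the gamma-3 subunit, a less common partner in the benzodiazepine site. Slc26a7-Gad2 nuclei held 1327, 1920, 1879 and 1596 CPM, and all 4 values lay above every value of every other gate. Glutamate nuclei held 898, 1189, 1172 and 1231 CPM, dopamine nuclei 669, 843, 1111 and 952, and GABA nuclei 816, 852, 905 and 878. The dopamine range overlapped both of those neighbours. Astrocytes held 375 to 559 and precursors 382 to 571 CPM, not separated by the test (log2 fold change 0.27 ± 0.13, edgeR adjusted p = 0.0633), though 5 of 13 alternatives called it. These were no filter on low counts (0.30, edgeR adjusted p = 0.0075), RLE size factors (0.0414), thinned sums (0.0220) and leaving out female 2 (0.0398) or male 1 (0.0233). Oligodendrocytes held 12.5 to 17.5 CPM. The Slc26a7-Gad2 gate was higher than dopamine by 0.86 ± 0.12 (edgeR adjusted p = 2.17e-06), than GABA by 0.99 ± 0.12 (adjusted p = 1.90e-07) and than glutamate by 0.60 ± 0.12 (adjusted p = 0.000712). Thinned shares with a Gabrg3 UMI were 75.7% ± 3.4 in Slc26a7-Gad2 nuclei, 61.5% ± 4.3 in glutamate, 59.2% ± 5.9 in dopamine and 53.5% ± 1.1 in GABA nuclei, beside 1.80% in oligodendrocytes (SD, n = 4).

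Gabrd, for the delta subunit, was rare and, among the 7 gates, highest in the GABA gate. It gave 25, 19, 23 and 13 UMIs there in the 4 libraries, or 10.8, 7.38, 8.35 and 7.09 CPM. Glutamate nuclei gave 0, 1, 10 and 4 UMIs, the Slc26a7-Gad2 gate 3 in all, dopamine nuclei 1 in all, and astrocytes and precursors 0. Nuclei outside every gate gave 52 of the 157 Gabrd UMIs over all kept nuclei. The GABA level over all libraries was 7.92-fold that of glutamate (exact 95% interval 4.53 to 14.8, which covers counting error only). Male 1 gave 10 of the 15 glutamate UMIs, and without it the ratio was 16.4 (6.65 to 52.6), against 5.33 to 8.10 with another library left out. Against dopamine the ratio was 27.7 (4.83 to 1108), and at least 6.52 without female 1, which gave the 1 dopamine UMI. It was at least 14.0-fold higher than in precursors and at least 18.9-fold higher than in astrocytes, with 3 UMIs over the group as the floor. The GABA gate was above glutamate in edgeR's test as well (log2 fold change 2.95 ± 0.47, adjusted p = 2.24e-05). Gabra4, a usual partner of delta, and Gabrd had their highest levels in different gates.

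Gabre, for the epsilon subunit, an X-linked gene of hypothalamic and monoamine cells, was rarer still and the 1 gene of the 8 left out by the filter on low counts. GABA nuclei gave 1, 7, 18 and 4 UMIs, glutamate nuclei 4, 2, 11 and 10, and dopamine nuclei 0, 1, 3 and 2. Astrocytes gave 0 UMIs and precursors 1. Nuclei outside every gate gave 55 of the 124 Gabre UMIs over all kept nuclei. The GABA and glutamate levels could not be told apart by counting (ratio 1.65, exact 95% interval 0.948 to 2.89). Without male 1 the ratio was 1.08 (0.467 to 2.44), and without female 1 or male 2 the interval lay above 1 (1.02 to 3.32 and 1.06 to 4.00). Of the 18 UMIs in GABA nuclei of male 1, 11 lay in 60 nuclei with a UMI of Isl1, a forebrain and hypothalamic factor, and that library held 60 of the 83 such nuclei. Without those nuclei the GABA gate held 0.448 to 3.16 CPM.

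Between dopamine and GABA, 6 of the 7 genes tested differed, 1 higher and 5 lower in dopamine, where 28.7% of all 12412 genes were called at an adjusted p under 0.05 (14.2% higher and 14.4% lower). The members' median was -0.91 on the log2 scale and that of all genes -0.01. Between dopamine and glutamate, 5 of 7 differed (24.3% of all genes, 12.2% higher and 12.1% lower), 1 higher and 4 lower, with a median of -0.59 against -0.01 for all genes. The calls of Gabra3 and Gabrg1 there were each lost in 7 of 14 alternatives. Among these, Gabra3 was lost with DESeq2 (adjusted p = 0.0903), without female 1 (edgeR adjusted p = 0.268) and without male 2 (0.121), and Gabrg1 with doublets kept (-0.33, edgeR adjusted p = 0.240) and without female 1 (0.0799), female 2 (0.0812) or male 2 (0.124). Gabra3 was also lost against GABA nuclei without female 1 (edgeR adjusted p = 0.0707). Gabrg3 was not called in either comparison, at 0.13 ± 0.12 (edgeR adjusted p = 0.481) and -0.26 ± 0.12 (adjusted p = 0.110). With only nuclei that met exactly 1 gate it was lower in dopamine than in glutamate nuclei (-0.59, edgeR adjusted p = 9.18e-05), as it was without male 1 (-0.39, adjusted p = 0.0086), with no filter (-0.31, 0.00686) and without the Nkx2-1, Foxb1 or Sim1 nuclei (-0.37, 0.020).

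GABA and glutamate nuclei differed in 6 of 7 genes, 2 higher and 4 lower in GABA nuclei (11.7% of all genes, 5.54% higher and 6.12% lower), but by smaller amounts. Gabra4 was lower in GABA nuclei by a log2 difference of -0.85 ± 0.18 (edgeR adjusted p = 0.000567), Gabra5 at -0.56 ± 0.13 (adjusted p = 0.00182), Gabra2 at -0.51 ± 0.14 (adjusted p = 0.0136) and Gabrg3 at -0.39 ± 0.11 (adjusted p = 0.0189). Gabrg1 was higher by 0.44 ± 0.14 (adjusted p = 0.0323), and Gabrd higher as given with its counts. DESeq2 called 2 of the 7, and 3 were called without the Nkx2-1, Foxb1 or Sim1 nuclei, where Gabra4 stood at -0.44 (edgeR adjusted p = 0.0737), an alternative chosen after the data were seen. Leaving out female 1 left 2 calls, with Gabra2 at -0.35 (edgeR adjusted p = 0.280), and leaving out male 2 left 3, with Gabra2 at -0.50 (adjusted p = 0.0646) and Gabrg3 at -0.34 (adjusted p = 0.265). Gabrg1 was lost without any 1 of the 4 libraries (edgeR adjusted p 0.0543 to 0.115), Gabra5 without female 1 (0.068) or male 1 (0.0604), and Gabrg3 also without female 1 (0.0802) or female 2 (0.0579).

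Gabra4 in the Slc26a7-Gad2 gate overlapped GABA and glutamate nuclei and not dopamine nuclei. It was lower there than in dopamine by a log2 difference of -1.89 ± 0.25 (edgeR adjusted p = 4.17e-07), and with Gabrg3 this made 2 of 7 genes called (14.8% of all genes, 7.28% higher and 7.49% lower). Against GABA nuclei 3 of 7 were called (6.69%, 3.38% higher and 3.31% lower): Gabrg3 higher, Gabra5 lower by a log2 difference of -1.19 ± 0.27 (adjusted p = 0.00229) and Gabrg1 lower by a log2 difference of -1.71 ± 0.30 (adjusted p = 8.97e-05). Against glutamate nuclei 4 of 7 were called (5.67%, 2.87% higher and 2.8% lower), with Gabra5 lower by a log2 difference of -1.75 ± 0.25 (edgeR adjusted p = 3.63e-06), Gabrg1 at -1.27 ± 0.31 (adjusted p = 0.00728) and Gabra2 at -1.15 ± 0.23 (adjusted p = 0.000568). This gate held 8 to 12 UMIs of Gabrg1 and 5 to 14 of Gabra5 per library, which limits both differences. Without male 2, Gabra5 against GABA (edgeR adjusted p = 0.0646) and Gabrg1 against glutamate (0.0715) were not called. Gabrg1 against glutamate was also lost with nuclei of exactly 1 gate (edgeR adjusted p = 0.0976) and with thinned sums (0.456). Thinned sums lost Gabra5 (edgeR adjusted p = 0.276) and Gabrg1 (0.0559) against GABA as well. The Gabra4 difference from GABA nuclei was 0.41 ± 0.29 (adjusted p = 0.542).

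**Figure D3:**
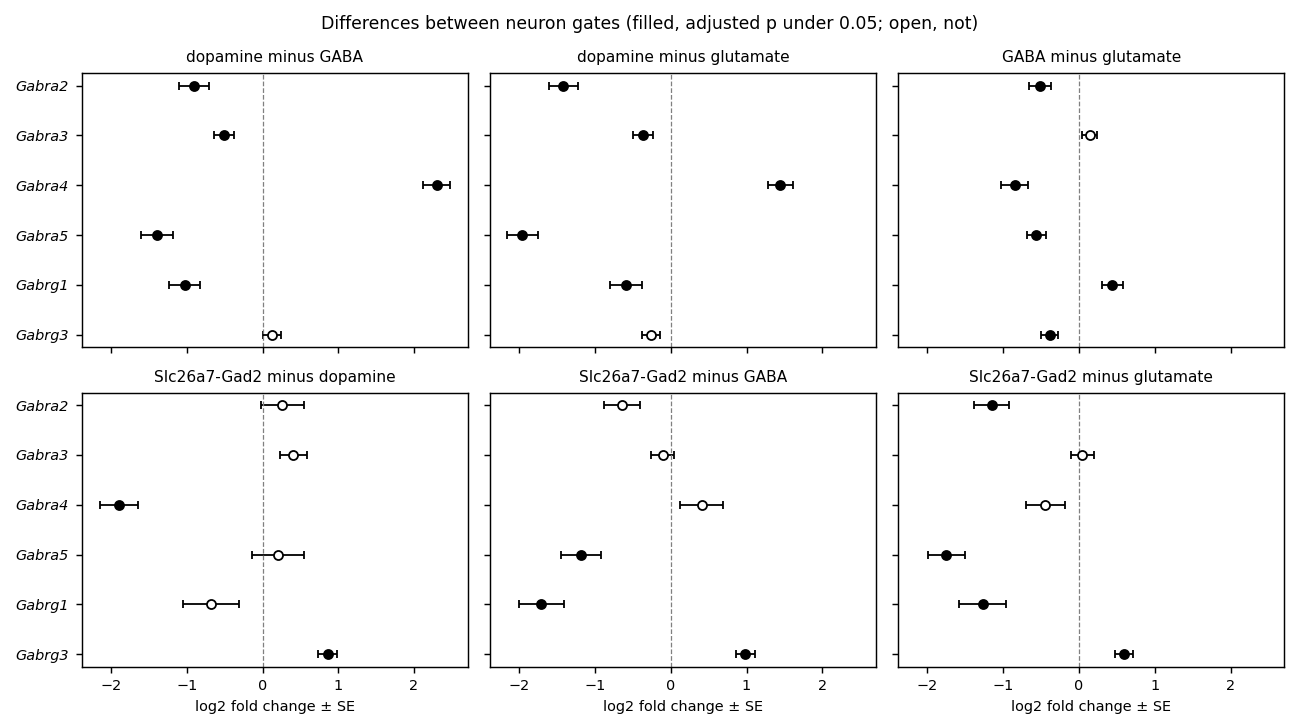
Differences of 6 subunit genes between pairs of neuron gates. The horizontal axis is the log2 fold change of the first gate named minus the second, with its standard error, from edgeR on 4 libraries. Filled points have an adjusted p under 0.05 and open points do not. Gabra4 lies at 2.30 in dopamine minus GABA and Gabrg3 at 0.99 in Slc26a7-Gad2 minus GABA.

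Among glia, precursors held Gabra3 at a level near that of neurons and astrocytes did not. Astrocytes were higher than precursors for Gabra4 (1.62 ± 0.23, edgeR adjusted p = 1.72e-07), Gabrg1 (1.22 ± 0.12, adjusted p = 1.45e-11) and Gabra2 (1.22 ± 0.16, adjusted p = 5.98e-08). They were lower for Gabra3 (-5.03 ± 0.25, adjusted p = 2.65e-19) and Gabra5 (-2.21 ± 0.46, adjusted p = 8.55e-05), which made 5 of 7 called (54.6% of all genes, 26.5% higher and 28.1% lower). Thinned shares with a Gabra3 UMI were 16.1% ± 3.4 in precursors and 0.424% in astrocytes, beside 0.620% in oligodendrocytes (21.6% and 0.841% unthinned for the first 2). The neuron markers summed to 1400 to 1919 CPM in precursors and 102 to 259 in astrocytes, and their part in the Gabra3 difference was not tested. Precursors exceeded oligodendrocytes in 6 of 7 genes (66.0% of all genes called, 32.8% higher and 33.3% lower) and astrocytes did in 4 of 7 (67.1%, 32.0% higher and 35.2% lower). The mean of the 4 neuron gates differed from that of the 3 glial gates in 7 of 7, 6 higher and 1 lower (76.4% of all genes, 37.8% higher and 38.6% lower). The glial mean weighs the 3 gates equally on the log2 scale, oligodendrocytes included. Gabra2 counts among the 6 higher, though its mean was 290 CPM in astrocytes and 86.4 to 241 in the neuron gates. Gabrd does too, with 0 UMIs in astrocytes and precursors.

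The mix of the 8 genes was also described as shares of their summed UMIs. UMIs of nuclear RNA are not corrected for gene length, so a share is read for 1 gene across gates and not between genes. Gabra4 made up 22.9% ± 3.8 of these UMIs in the dopamine gate, against 4.44% to 7.81% in the other neuron gates and astrocytes (SD, n = 4). Gabrg3 made up 81.7% ± 3.8 in Slc26a7-Gad2 nuclei and 60.9% to 64.1% in the other neuron gates. Gabrg1 made up 1.31% to 6.29% in neuron gates, 29.1% ± 2.4 in precursors, 41.8% ± 5.1 in astrocytes and 61.6% ± 8.1 in oligodendrocytes. By level, Gabrg1 averaged 42.9 CPM in oligodendrocytes, below 300 in precursors and 640 in astrocytes. The other members averaged at most 13.9 CPM in oligodendrocytes, so the high share there is not a high level.

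**Figure D4:**
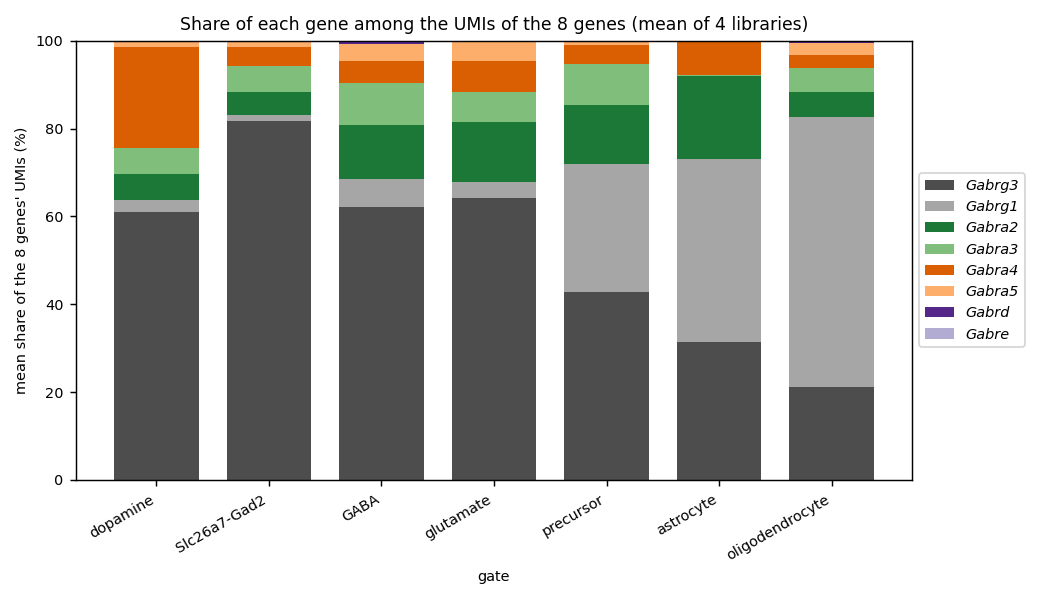
Share of each of the 8 genes among their summed UMIs, by gate. Each bar is the mean of 4 libraries and adds up to all UMIs of the 8 genes in that gate. Gabra4 takes 22.9% of the dopamine bar, Gabrg3 81.7% of the Slc26a7-Gad2 bar and Gabrg1 61.6% of the oligodendrocyte bar. Shares are not levels: Gabrg1 averaged 42.9 CPM in oligodendrocytes and 640 in astrocytes.

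Within the gates the genes varied further between nuclei that held a UMI of a regional marker. These subsets were chosen with values known, so they are described and not tested. Among GABA nuclei, 121 with Lum, which encodes lumican, held 9.45, 20.8, 17.5 and 15.1 CPM of Gabra4. The 127 with Gata3, a factor of midbrain GABA neurons, but no UMI of Meis2 or Lum held 118, 115, 141 and 64.0. Gabra5 gave 4.38 to 14.9 CPM with Lum and 41.2 to 59.1 in that Gata3 subset. Gabrg3 gave 126 to 524 with Lum and 1039 to 1457 in that Gata3 subset. For these 3 genes the ranges of the 2 subsets, which share no nuclei by definition, did not overlap. Of the 80 Gabrd UMIs of GABA nuclei, 73 (91.2%, exact Clopper-Pearson 95% interval 82.8 to 96.4) lay in the 424 nuclei with Meis2 or Lum, which were 37.1% of the gate's nuclei. The 80 UMIs came from 60 nuclei, and the interval leaves out the spread between nuclei and libraries. The 127 nuclei with Gata3 and without Meis2 or Lum held 2 of the 80. By that rule they could hold none of the 73, and Gata3 nuclei as a whole were not counted.

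Among glutamate nuclei, the 148 with Nkx2-1 held 622, 869, 563 and 404 CPM of Gabra2, where 869 rests on 4 nuclei of female 2. The 414 with C1ql1, which encodes a synaptic organiser, and without Nkx2-1, Foxb1 or Sim1 held 92.0, 89.4, 133 and 124. Gabra4 followed, at 229 to 373 CPM with Nkx2-1 and 60.9 to 88.6 with C1ql1. The Nkx2-1 range overlaps the 296 to 369 CPM of Gabra4 in the dopamine gate. Gabrg3 went the other way, at 149 to 364 with Nkx2-1 and 723 to 1063 with C1ql1. The 627 glutamate nuclei with Lmx1a, a factor of midbrain floor plate origin, held 144 to 250 CPM of Gabra2 and 1136 to 1490 of Gabrg3. They too were taken without Nkx2-1, Foxb1 or Sim1, so neither subset shares nuclei with the Nkx2-1 subset.

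In the dopamine gate, 65 nuclei with Sox6, a factor of 1 class of dopamine neurons, held 397, 495, 519 and 337 CPM of Gabra4 against 330, 220, 288 and 289 in the rest, higher in each library. Their Gabrg3 was 172, 322, 553 and 718 CPM against 796, 1080, 1410 and 989, lower in each. The 36 dopamine nuclei with a Slc26a7 UMI held 3918, 2296, 2320 and 1475 CPM of Gabrg3 against 607, 613, 805 and 895 in those without it, the first value from 2 nuclei. High Gabrg3 thus went with a Slc26a7 UMI inside the dopamine gate. Of these 36 nuclei, 23 also met the Slc26a7-Gad2 rule, so they are not a separate observation from that gate. Every nucleus of that gate holds Slc26a7 by definition.

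**Figure D5:**
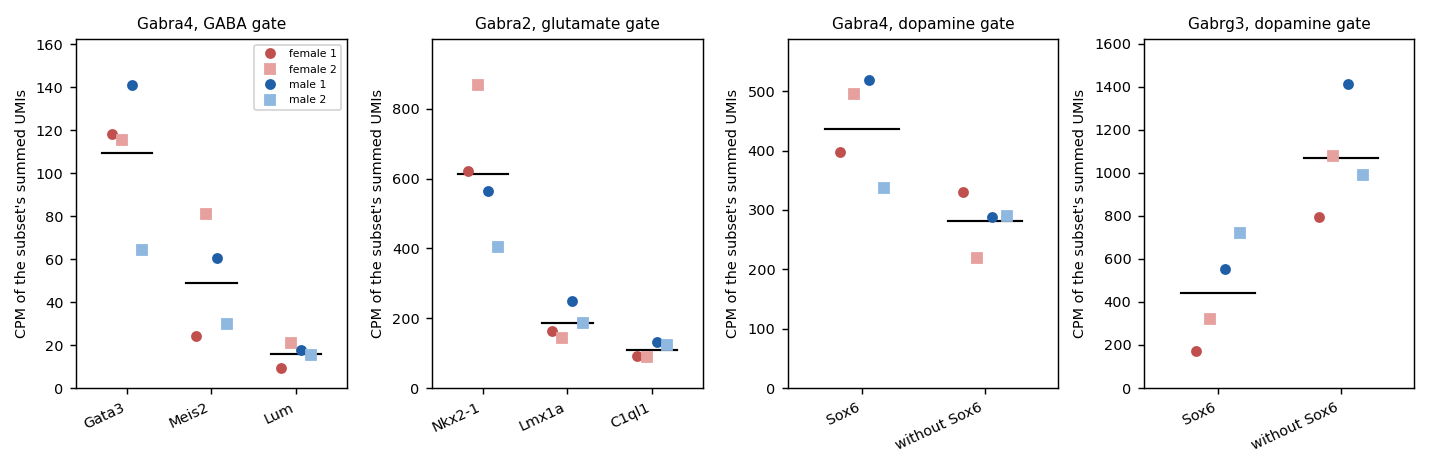
Level of Gabra4, Gabra2 and Gabrg3 in subsets of the GABA, glutamate and dopamine gates. The vertical axis is CPM of the UMIs summed over the subset's nuclei, each point is 1 library and the bar is the mean of 4. Gabra4 in GABA nuclei falls from 64.0 to 141 CPM with Gata3 to 9.45 to 20.8 with Lum, and Gabra2 in glutamate nuclei from 404 to 869 with Nkx2-1 to 89.4 to 133 with C1ql1. Gata3 nuclei here are those without Meis2 or Lum, and Meis2 nuclei those without Gata3 or Lum. C1ql1 and Lmx1a nuclei are those without Nkx2-1, Foxb1 or Sim1.

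Other genes of inhibitory signalling were counted from lists of receptor scaffolds, chloride transport and ligands. Of 21 scaffold and trafficking genes, all tested, 0 were higher and 8 lower in dopamine than in GABA nuclei (14.2% and 14.4% of all genes), with a median log2 fold change of -0.25. The furthest were Mdga1 (-1.11 ± 0.34, edgeR adjusted p = 0.0102) and Slitrk3 (-0.79 ± 0.28, adjusted p = 0.0313). Against glutamate nuclei, 5 were lower and 0 higher (12.1% and 12.2% of all genes), among them Mdga1 (-2.29 ± 0.29, edgeR adjusted p = 5.36e-08). Mdga1 binds neuroligin-2 and restrains inhibitory synapses. Plcl1, which binds the receptor and guides its trafficking, was higher in Slc26a7-Gad2 nuclei, at 62.5 to 73.3 CPM, than in dopamine nuclei (1.63 ± 0.26, adjusted p = 1e-05), and 6 scaffold genes were higher and 1 lower in that comparison (7.28% and 7.49% of all genes). Between astrocytes and precursors, 4 were higher and 12 lower (26.5% and 28.1% of all genes), with Shisa7 at -5.67 ± 0.32 (adjusted p = 6.32e-18), Slitrk3 at -5.57 ± 0.45 (adjusted p = 2.88e-13) and Trak1 at 2.04 ± 0.11 (adjusted p = 9.83e-19).

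Of 9 chloride transport genes, 4 were higher and 1 lower in dopamine than in GABA nuclei (14.2% and 14.4% of all genes). Stk39, a kinase that activates the importer Slc12a2, was higher (2.73 ± 0.10, edgeR adjusted p = 2.36e-22), and Slc12a5, the exporter that keeps neuronal chloride low, was lower (-0.69 ± 0.15, adjusted p = 0.000463). Slc12a5 stood at 36.5 to 58.0 CPM in dopamine nuclei and at no more than 4.40 in astrocytes, where precursors held 27.2 to 30.1. Of the site ligand genes, Dbi, which encodes a peptide that binds the benzodiazepine site, was lower in the mean of the neuron gates than in that of the glial gates (-2.80 ± 0.08, edgeR adjusted p = 1.20e-27). Srd5a1, for an enzyme of neurosteroid synthesis, averaged 64.9 CPM in oligodendrocytes and 6.09 to 7.35 CPM in the other 6 gates. Of 11 other receptor subunit genes, 4 passed the filter, and 1 was higher and 3 lower in dopamine than in GABA nuclei, against the same shares of all genes.

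No member was called by sex in the fit without a replicate block. Over the 7 gates and all nuclei, 49 pairs of gene and fit were tested and edgeR called 0, with DESeq2 also calling 0, 6 pairs at an unadjusted p under 0.05 and a lowest adjusted p of 0.612. The rate over all genes in these fits was 0.0643%. Without female 1, Gabra5 was called in glutamate nuclei (-1.13, edgeR adjusted p = 0.0306). The pair with the lowest adjusted p was Gabra4 in precursors, lower in females by a log2 difference of -0.79 ± 0.28. Over all nuclei Gabrg3 was lower in both female libraries than in either male library (-0.35 ± 0.11, edgeR adjusted p = 0.900). None of 63 tests of whether a gate difference itself differed between the sexes was called (lowest adjusted p 0.847, 1 at an unadjusted p under 0.05, and 0.0215% of all genes).

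The genes most like each member across the 28 sums of gate and library were named by Pearson's r of log2(CPM + 1). For Gabra4 they were Gpr158 (0.97) and Dock11 (0.97), for Gabra2 Ntm (0.98) and Kalrn (0.97), and for Gabra3 Atp8a2 (0.99) and Dok6 (0.99). For Gabra5 they were Camk2a (0.97) and Gls2 (0.96), for Gabrg1 Cst3 (0.95) and Hoga1 (0.95), and for Gabrg3 a gene listed as AABR07026957.1 (0.99) and Snph (0.99). The sums share libraries and depth, and these values are descriptions.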

How the data were processed

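Per the file headers, the deposited tables hold whole-number counts of UMIs for each barcode, with no scaling. The submitters' processing notes name Cell Ranger and the genome build rn6, the file headers a software version of 3.0.2, and neither says whether intronic reads entered the counts. No barcode had 500 UMIs or fewer, so a selection preceded deposit, and no removal of free RNA is recorded. From 21606 barcodes, 6 with under 200 genes or over 5% mitochondrial UMIs and 980 with the highest Scrublet scores (scanpy 1.11.5, 0.8% per 1000 barcodes) were removed. The caller's own threshold marked 473.

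UMIs were summed per library and gate (28 sums) and tested with edgeR 4.0.16 in R 4.3.3: quasi-likelihood test, TMM, filterByExpr, library as a block and Benjamini-Hochberg adjustment over all genes tested, without the 11 gate genes, at 0.05. Sex was tested 2 libraries against 2 within each gate and over all nuclei. The labels do not say whether libraries of 1 sex came from separate litters or days, so p-values by sex measure the spread between pooled libraries. Those of the gate comparisons measure the spread left after the library block. For each gene it was estimated over all 28 sums, neuron and glial gates together. CPM is relative to the total of the sum. Shares of nuclei were computed after thinning to 2000 UMIs, leaving out shallower nuclei: 3047 oligodendrocytes, 452 precursors, 312 astrocytes, 825 of 1008 ungated nuclei with microglia markers and at most 17 per neuron gate. Intervals and the floor of 3 UMIs cover counting error only. The tests recovered changed genes in simulated counts, which used a fixed spread, well-counted genes and no change smaller than a doubling. That simulation did not cover Gabrd, Gabre or smaller differences.

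All 8 members are named. Of the other genes, up to 4 called genes with the largest changes per list and comparison, and the 2 most alike by r, could be named. The members and lists were chosen with earlier results of these data known. Promoters came from RefSeq (GRCr8), matched by symbol, and the counts' own build is another, so no coordinate was carried over. Alternatives were DESeq2 1.42.0, its size factors, no filter, each library left out, doublets kept, nuclei of exactly 1 gate or counted in every gate, stricter glial gates, thinned sums, no library block and, for sex, the replicate number as a block. In addition, 2 alternatives were chosen after seeing the data: the glutamate gate without Nkx2-1, Foxb1 or Sim1 nuclei and the GABA gate without Isl1 nuclei. Results for 1 further list of related genes are not reported here.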

Additional observations from a re-analysis of the deposited data

Results flagged for a closer look

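Within a gate, 6 of 53 groups of 4 libraries had 1 value far from the other 3, where chance flags about 1 in 20. Gabra3 in the GABA gate was 109 CPM in male 2, against 137 to 141 in the others, and Gabra3 in astrocytes was 3.78 CPM in female 1, against 2.26 to 2.51. Gabrg3 in oligodendrocytes was 17.5 CPM in male 1, against 12.5 to 13.0. The other 3 rest on 1 UMI or none: Gabrd in dopamine nuclei at 1.35 CPM in female 1 against 0, Gabre in Slc26a7-Gad2 nuclei at 0 in male 2 against 2.44 to 2.80, and Gabre in precursors at 0.687 CPM in male 2 against 0.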

How the results depend on the processing

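Of 853 member fold changes in gate contrasts under an alternative, 777 kept direction and side of the threshold, 48 were no longer called, 14 became called and 14 turned direction, all of the last being uncalled. The counts of members called stayed within 1.5 times in 128 of 138. For dopamine against glutamate 3 were called with doublets kept and 3 with thinned sums, and 3 to 6 with 1 library left out. For GABA against glutamate DESeq2 called 2, thinned sums 3, no library block 3, the glutamate gate without Nkx2-1, Foxb1 or Sim1 nuclei 3, and leaving out 1 library 2 to 4. The cause was not tested. By sex, the fit with the replicate block called 3: in glutamate nuclei Gabra4 (-0.44, adjusted p = 0.0354) and Gabra5 (-0.51, adjusted p = 0.0165), and in precursors Gabrg3 (0.38, adjusted p = 0.0396). The labels give the numbers no shared litter or day. Same-numbered female and male libraries had deviations correlated at 0.338 over 16033 genes, and with 2 numbers this does not settle whether they are paired. Leaving out 1 library gave 0 to 1 calls by sex, the 1 being Gabra5 in glutamate nuclei without female 1 (-1.13, adjusted p = 0.0306).

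Turned log2 fold changes were these. Gabrg3, dopamine minus GABA, was -0.21 with exactly 1 gate and -0.0099 to 0.22 with 1 library left out. With thinned sums, Gabra3 was -0.028 in GABA minus glutamate, Gabra2 -0.20 and Gabra3 -0.28 in Slc26a7-Gad2 minus dopamine, and Gabra5 0.43 in astrocyte minus oligodendrocyte. With 1 library left out, Gabra5 in Slc26a7-Gad2 minus dopamine ran from -0.29 to 0.54 and Gabra3 in Slc26a7-Gad2 minus GABA from -0.20 to 0.020. Gabra3 in Slc26a7-Gad2 minus glutamate was -0.025 without the filter, -0.23 with exactly 1 gate, -0.053 with every gate met, -0.67 with thinned sums, -0.032 without the Nkx2-1, Foxb1 or Sim1 nuclei and -0.094 to 0.14 with 1 library left out. By sex over all nuclei, leaving out 1 library gave -0.25 to 0.049 for Gabra3, -0.36 to 0.11 for Gabrg1 and -0.32 to 0.26 for Gabrd, and Gabrd was 0.10 with doublets kept and 0.033 with thinned sums.

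Without thinning, shares with a UMI were 73.7% for Gabra4 in dopamine nuclei, 77.1% for Gabrg1 in astrocytes and 50.7% in precursors, 88.7% for Gabrg3 in Slc26a7-Gad2 nuclei, and 21.6% for Gabra3 in precursors and 0.841% in astrocytes. Gabra4 made up 27.2% of the members' UMIs in dopamine nuclei of exactly 1 gate. Depth limits Gabrd and Gabre most, with 80 and 30 UMIs in the GABA gate.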

Other observations

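Bmp4, a gene of precursors on the way to oligodendrocytes, marked 222 of 1614 precursor nuclei. Those nuclei held 0, 0, 0 and 4.54 CPM of Gabra5 and 13.8, 36.0, 8.01 and 22.7 CPM of Gabra4 in female 1, female 2, male 1 and male 2, and the other precursors 13.9, 5.59, 8.86 and 14.6 CPM of Gabra5 and 45.7, 22.4, 54.3 and 70.4 of Gabra4. Gabra4 was lower with Bmp4 in 3 of 4 libraries. Gabrg1 did not follow, at 236 to 353 CPM with Bmp4 and 296 to 311 without. The 5486 nuclei outside every gate held 121 to 204 CPM of Gabra2, 88.4 to 100 of Gabrg1 and 555 to 844 of Gabrg3, and were not analysed further.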
